A study of Sus scrofa with 2 samples.

Results

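The genes described here serve the unfolded protein response and the amino acid stress response in porcine (Sus scrofa) granulosa cells, which line the ovarian follicle and nurse the oocyte. They were chosen by name: chaperones and folding enzymes of the endoplasmic reticulum (ER), stress sensors and their factors, genes of ER-associated degradation, and targets of the transcription factor ATF4. The rule names 40 symbols and found 36 of them among the 34570 genes listed. Of these 36, 35 were above 0 and are described here, and each has at least 100 reads over both libraries. DDIT3, the pro-death factor CHOP, was listed at 0 in both libraries, which says nothing of its expression. HERPUD1, P4HB, DERL2 and DDIT4 were not analysed here.

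Follicular granulosa cells of Chinese Erhualian pigs were treated with SMAD4-siRNA, directed at the shared mediator of TGF-beta, activin and BMP signals, or with NC-siRNA, against which it was set. Equal amounts of RNA from 3 individuals were mixed in each group, and each pool gave 1 library, so there is no replicate and no test between the groups. Nothing in the labels says whether both pools came from the same animals, and a difference between animals cannot be told apart from one between siRNAs. The labels used here name no siRNA dose, no time after treatment and no age of the animals.

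The ER folds secreted and membrane proteins. When unfolded proteins build up there, the sensors IRE1 (ERN1), PERK (EIF2AK3) and ATF6 raise chaperones and degradation genes, IRE1 through splicing of XBP1 mRNA and ATF6 as a released transcription factor. PERK, like the amino acid sensor GCN2, phosphorylates the initiation factor eIF2, which lowers bulk translation but favours translation of ATF4, a factor that turns on genes for amino acid synthesis, uptake and stress feedback. Granulosa cells secrete matrix, inhibins and binding proteins, and use this machinery also without stress.

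The libraries held at least 17394711 reads on genes for SMAD4 siRNA and 17680952 for NC siRNA. The targeted gene SMAD4 had a value of 47.9 UQ-RPKM (RPKM scaled by the upper quartile, the unit of every value given here) with SMAD4 siRNA and 85.0 with NC siRNA, a ratio of 0.563 (0.497 to 0.639). Each range after a ratio is a 95% interval for counting error alone. Reads are lower bounds, so a range can be wider than the true counting error. Granulosa markers FOXL2, INHA, INHBA, GATA4, NR5A1, NR5A2 and WT1 had over 100 reads in each library. Of these INHBA, the activin and inhibin beta A subunit, had 868 with SMAD4 siRNA and 663 with NC siRNA, a ratio of 1.31 (1.22 to 1.41). FSHR had 7 reads with SMAD4 siRNA and 9 with NC siRNA. HSD17B1 had 17 reads with SMAD4 siRNA and 8 with NC siRNA, a ratio of 1.93 (0.789 to 5.17). AMH, CYP19A1 and CYP11A1 were listed at 0, which says nothing of their expression. The median log2 ratio was -0.05 over the 16609 genes whose mean value reached 1. Scaling both libraries to the same sum of values adds 0.12 to every log2 ratio of plain values, so ratios between 0.921 and 1 then lie above 1. The median over the 16609 genes is then 0.069. Over genes with at least 100 reads it is 0.060, the value to set beside every scaled median below.

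As a group the 35 genes differed little between the libraries. Their ratios ran from 0.614 to 1.26, with a median log2 ratio of -0.09 as deposited and 0.028 with both libraries scaled to the same sum. Over all genes with at least 100 reads the medians were -0.06 and 0.060, so the members lay slightly lower on both scales. At 1.5-fold, 0 of 35 were higher, where the background was 4.39% of the 9664 genes with at least 100 reads and 13.5% of the 16609 above. CEBPB was the single member lower by 1.5-fold, against a background of 5.69% and 13.7% in the same sets. At 2-fold 0 members were higher and 0 lower, where 1.32% of the genes with at least 100 reads were higher and 1.12% lower. Values of the 35 genes summed to 81226 with SMAD4 siRNA and 86057 with NC siRNA, which is 0.625% of the sum of all values with SMAD4 siRNA and 0.610% with NC siRNA.

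Many members differed by small amounts that were still larger than counting error, and the direction varied with the role. As deposited, 5 of 35 members (14.3%) had a counting interval wholly above 1, against 17.6% of all genes with at least 100 reads, and 17 (48.6%) had one wholly below 1, against 32.4%. Intervals narrow with more reads, and members had a median of 3157 reads against 754 for those genes. With those genes split by level into 4 classes, the highest class holds 20 of the members. In that class 22.8% of all genes lay above 1 and 44.1% below. With both libraries scaled to the same sum the split was 12 above (34.3%), against a background of 30.8%, and 11 below (31.4%), against 19.6%. All 5 members above 1 as deposited were ATF4 targets or genes of amino acid synthesis: CHAC1, TRIB3, PHGDH, ASNS and PSAT1. Among the 25 members that act in or at the ER, 14 lay below 1 and 0 above as deposited, and 9 below and 6 above after scaling. Among the 10 of the ATF4 arm, 5 lay above and 3 below as deposited, and 6 above and 2 below after scaling. These merged classes of 25 and 10 were formed after the values had been seen, and their difference was not tested.

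**Figure D1:**
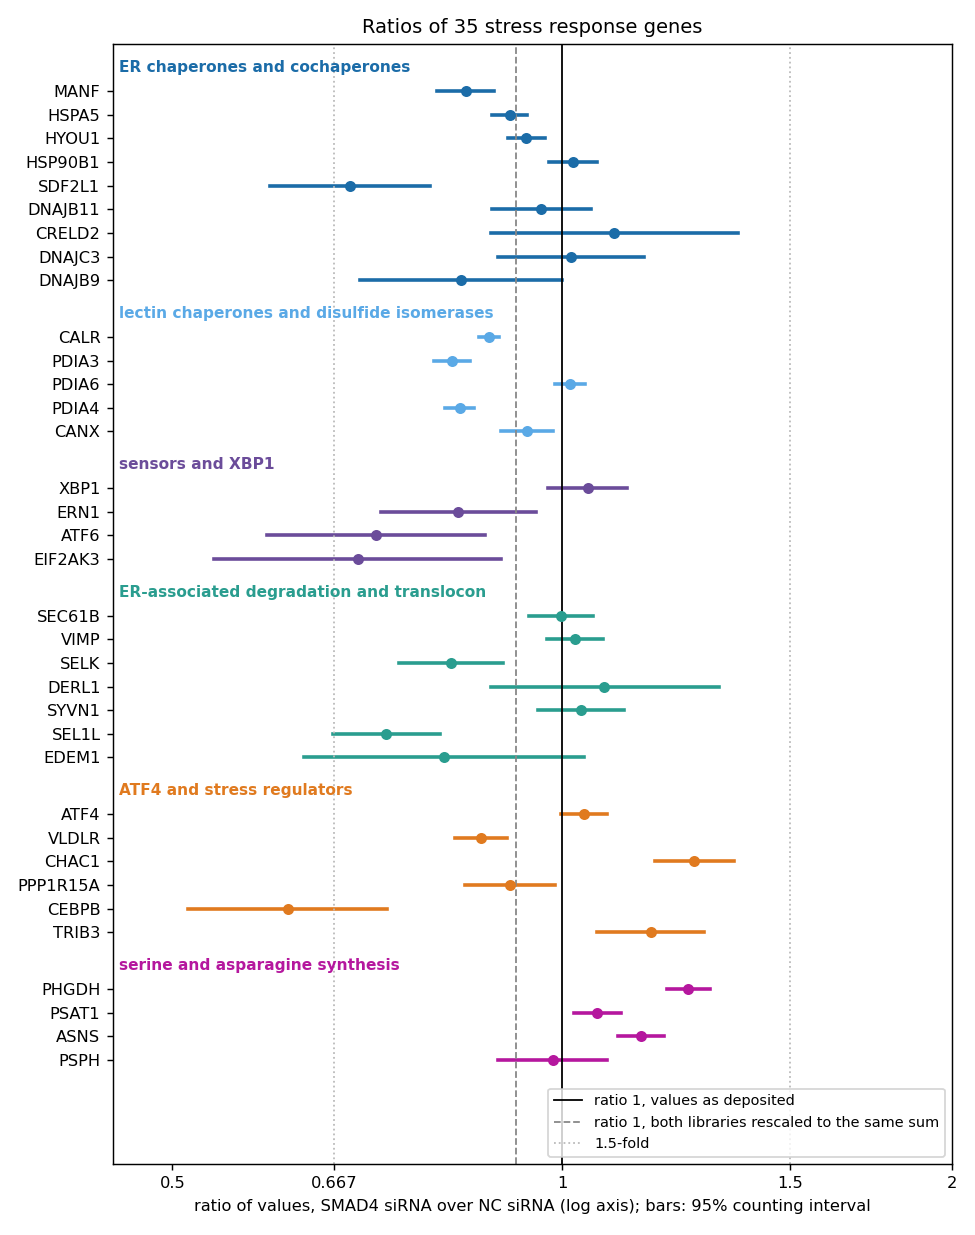
Ratio of values, SMAD4 siRNA over NC siRNA, for each of the 35 genes on a log axis, with bars for the 95% counting interval and dotted lines at 1.5-fold. CEBPB at 0.614 is the single point beyond 1.5-fold. The dashed line marks where a ratio of 1 lies with both libraries scaled to the same sum, and the points for CHAC1 and PHGDH lie farthest to the right, at 1.26 and 1.25.

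Chaperones of the ER lumen and their cofactors had a median log2 ratio of -0.09 over 9 genes, and of 0.026 after scaling. HSPA5, the Hsp70 chaperone BiP that binds unfolded chains and holds the sensors inactive, had a value of 3696 with SMAD4 siRNA and 4059 with NC siRNA. Its ratio was 0.911 (0.883 to 0.940) on 15836 reads over both libraries, and 0.988 with both scaled to the same sum. HSP90B1, the ER Hsp90 known as GRP94, stood at 1821 with SMAD4 siRNA and 1787 with NC siRNA, a ratio of 1.02 (0.977 to 1.06), or 1.11 after scaling. BiP and GRP94 are the classical reporters of ER stress, and their ratios lay between 0.911 and 1.11 on either scale. HYOU1, the nucleotide exchange factor of BiP, had 1682 with SMAD4 siRNA and 1793 with NC siRNA, a ratio of 0.938 (0.908 to 0.969) that became 1.02 after scaling.

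The J-domain cochaperones of BiP had ratios between 0.835 and 1.02. DNAJB11, which hands unfolded chains to BiP, had 528 with SMAD4 siRNA and 548 with NC siRNA, a ratio of 0.964 (0.882 to 1.05). DNAJC3, the cochaperone p58IPK, had 301 with SMAD4 siRNA and 296 with NC siRNA, a ratio of 1.02 (0.892 to 1.16). DNAJB9, the cochaperone ERdj4 that restrains IRE1, had 120.1 with SMAD4 siRNA and 144 with NC siRNA, a ratio of 0.835 (0.698 to 0.999) on 503 reads. The intervals of DNAJB11 and DNAJC3 held 1, and that of DNAJB9 barely missed it as deposited and held it after scaling. Relative to BiP, DNAJB9 stood at 0.0325 with SMAD4 siRNA and 0.0354 with NC siRNA.

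SDF2L1 had the lowest ratio among the chaperones and their cofactors. Its product forms a complex with the DNAJB11 protein and keeps clients soluble. It had 409 with SMAD4 siRNA and 597 with NC siRNA, a ratio of 0.686 (0.595 to 0.791) on 797 reads, and 0.745 after scaling. Of all genes with at least 100 reads, 6.87% had a lower log2 ratio. Its value per DNAJB11 value was 0.775 with SMAD4 siRNA and 1.09 with NC siRNA, so the order of these partners by value differed between the libraries. No counting interval was drawn for these within-library ratios, so the order is not settled.

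MANF and CRELD2, small proteins that are induced by ER stress and partly secreted, had ratios on different sides of 1. MANF, which binds BiP, had 3643 with SMAD4 siRNA and 4326 with NC siRNA, a ratio of 0.842 (0.801 to 0.885). CRELD2 had 517 with SMAD4 siRNA and 471 with NC siRNA, a ratio of 1.10 (0.881 to 1.37) on 340 reads, and its interval held 1 on both scales.

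Among the lectin chaperones and protein disulfide isomerases were the members with the highest levels. CALR, the calcium-binding lectin chaperone calreticulin, had the highest value of all members in each library, 12725 with SMAD4 siRNA and 14495 with NC siRNA. Its ratio was 0.878 (0.862 to 0.894) on 48686 reads. CANX, its membrane-bound relative calnexin, had 867 with SMAD4 siRNA and 923 with NC siRNA, a ratio of 0.939 (0.897 to 0.984). Per length, calreticulin thus stood 14.7 times above calnexin with SMAD4 siRNA and 15.7 times above it with NC siRNA. After scaling, the ratio of CALR was 0.953 with an interval still below 1, and that of CANX was 1.02 with an interval that held 1.

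The isomerases differed among themselves. PDIA3, which works with both lectins on glycoproteins, had 9761 with SMAD4 siRNA and 11877 with NC siRNA, a ratio of 0.822 (0.796 to 0.848). PDIA4, an isomerase of the same family, had 4016 with SMAD4 siRNA and 4818 with NC siRNA, a ratio of 0.834 (0.812 to 0.855). PDIA6, known to bind the sensors and attenuate their signal, had 8981 with SMAD4 siRNA and 8854 with NC siRNA, a ratio of 1.01 (0.988 to 1.04). The intervals of PDIA3 and PDIA4 overlap each other and lie apart from that of PDIA6, which holds under any common scaling of the libraries. Over the 5 genes of the group that were measured the median log2 ratio was -0.19 as deposited and -0.070 after scaling.

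**Figure D2:**
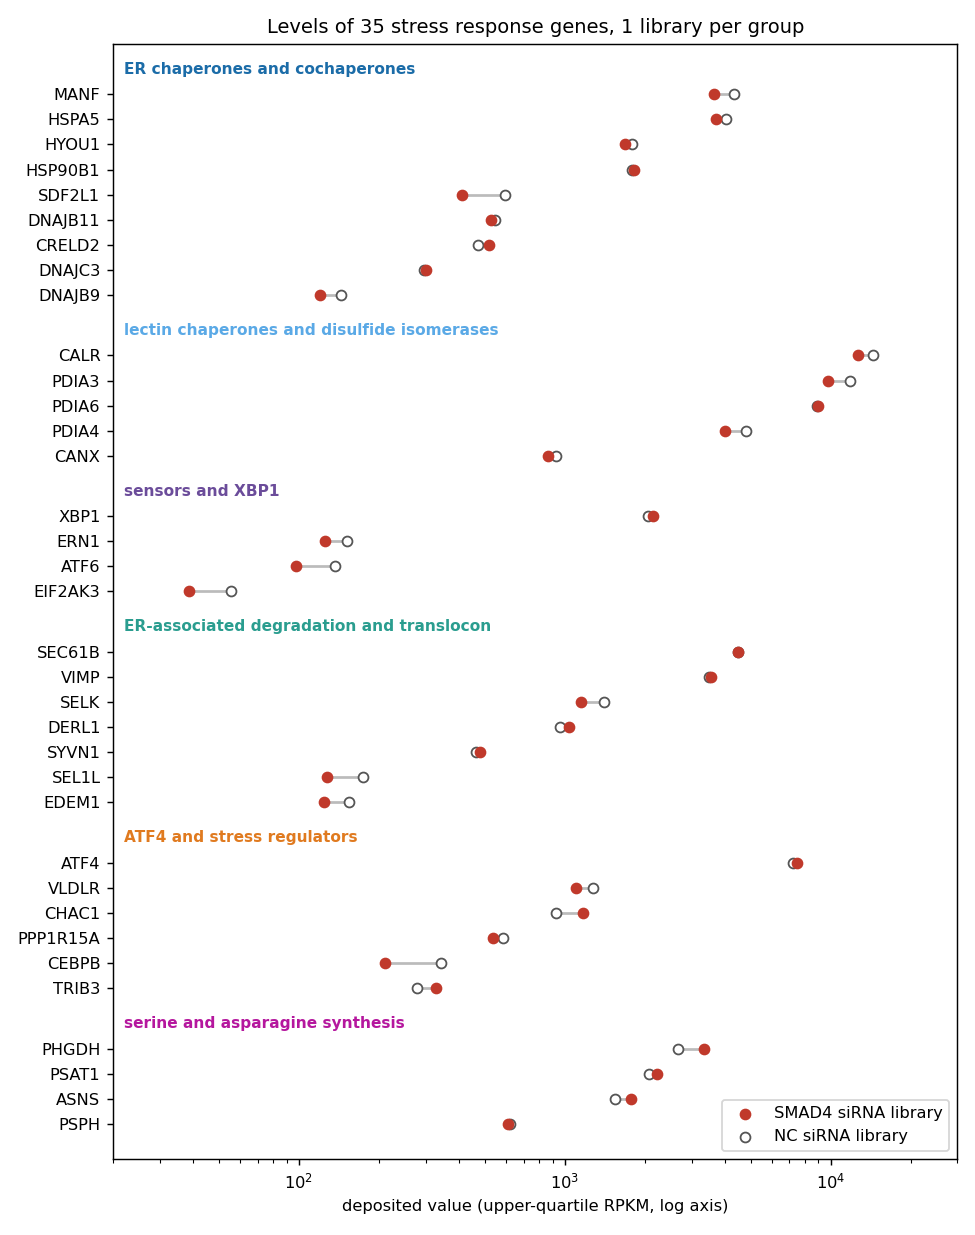
Deposited values of the 35 genes in the SMAD4 siRNA library (filled) and the NC siRNA library (open), on a log axis, grouped by role and sorted by the NC siRNA value. EIF2AK3 is lowest, at 38.6 with SMAD4 siRNA and 55.5 with NC siRNA, and CALR is highest, at 12725 with SMAD4 siRNA and 14495 with NC siRNA. The gap between the libraries is small beside that range for every gene.

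The sensors had low levels, and together with XBP1 they had the lowest median log2 ratio of the 6 role groups, -0.37 as deposited and -0.25 after scaling. EIF2AK3, the kinase PERK, was the lowest member in each library, with 38.6 for SMAD4 siRNA and 55.5 for NC siRNA. Its ratio was 0.695 (0.538 to 0.896) on 256 reads, the fewest recovered for any member. ATF6, the membrane-bound transcription factor, had 97.8 with SMAD4 siRNA and 136 with NC siRNA, a ratio of 0.718 (0.592 to 0.871) on 437 reads. ERN1, the kinase and RNase IRE1, had 126 with SMAD4 siRNA and 151 with NC siRNA, a ratio of 0.831 (0.724 to 0.954) on 837 reads.

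Every sensor thus had an interval below 1 as deposited. After scaling, PERK and ATF6 kept such an interval, with ratios of 0.755 and 0.780, and the interval of ERN1 held 1, with a ratio of 0.902. Of the genes with at least 100 reads, 7.81% had a lower log2 ratio than PERK, 9.43% a lower one than ATF6 and 24.3% a lower one than ERN1. Genes with low levels vary more: with the genes split by level into 4 classes of 2416, 82.0% of the lowest class, which holds PERK, lay within 1.5-fold. In the next class, which holds ATF6 and ERN1, 88.5% did, and in the highest class 95.2%. That next class also holds DNAJB9, SEL1L and EDEM1, members of other roles, with ratios of 0.835, 0.732 and 0.811. From the lowest class to the highest, members had median log2 ratios of -0.51 (1 gene), -0.30 (5), -0.025 (9) and 0.0086 (20). All genes of these classes had medians of -0.023, -0.075, -0.078 and -0.052. Role and level were not separated here.

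XBP1, the mRNA that IRE1 splices, did not share the sensors' low ratios. It had 2150.2 with SMAD4 siRNA and 2055 with NC siRNA, a ratio of 1.05 (0.975 to 1.12), and 1.14 after scaling with an interval above 1. Set against ERN1, XBP1 stood 17.1 times as high with SMAD4 siRNA and 13.6 times as high with NC siRNA. Gene values do not separate spliced from unspliced XBP1, so IRE1 activity was not measured.

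Genes of ER-associated degradation, which exports misfolded proteins to the proteasome, and of the translocon had a median log2 ratio of -0.0034 over 7 members, and 0.11 after scaling. SEL1L and SYVN1 encode the adaptor and the ubiquitin ligase HRD1 of the same membrane complex. SEL1L had 128 with SMAD4 siRNA and 174 with NC siRNA, a ratio of 0.732 (0.665 to 0.805) on 1755 reads. SYVN1 had 478 with SMAD4 siRNA and 463 with NC siRNA, a ratio of 1.03 (0.958 to 1.12). These intervals do not overlap, and SEL1L per SYVN1 was 0.267 with SMAD4 siRNA and 0.377 with NC siRNA. EDEM1, a lectin that marks misfolded glycoproteins, had 125 with SMAD4 siRNA and 154 with NC siRNA, a ratio of 0.811 (0.632 to 1.04) on 265 reads. DERL1, a derlin of the export machinery, had 1035 with SMAD4 siRNA and 960.1 with NC siRNA, a ratio of 1.08 (0.881 to 1.32) on 398 reads. Both of these intervals held 1, but reads are lower bounds, so the intervals can be too wide to settle either difference.

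The selenoproteins SELK (current symbol SELENOK) and VIMP (SELENOS), which help recruit the ATPase p97 to the ER membrane, differed from each other. SELK had 1148 with SMAD4 siRNA and 1399 with NC siRNA, a ratio of 0.821 (0.748 to 0.900). VIMP had 3560.1 with SMAD4 siRNA and 3482 with NC siRNA, a ratio of 1.02 (0.972 to 1.07). SEC61B, a subunit of the protein-conducting channel, had 4492 with SMAD4 siRNA and 4502 with NC siRNA, a ratio of 0.998 (0.943 to 1.06). After scaling, SELK kept an interval below 1, while VIMP at 1.11 and SEC61B at 1.08 had intervals above 1.

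In the ATF4 arm the factor itself was the fourth highest member in each library. ATF4 had 7488 with SMAD4 siRNA and 7205 with NC siRNA, a ratio of 1.04 (0.998 to 1.08) on 9626 reads, and 1.13 after scaling with an interval above 1. ATF4 is controlled largely by translation, and its protein was not measured. Among the genes that it is known to induce, CHAC1, which degrades glutathione, had 1169 with SMAD4 siRNA and 924 with NC siRNA. Its ratio of 1.26 (1.18 to 1.36), on 3333 reads, was the highest of all members. TRIB3, a pseudokinase that feeds back on ATF4, had 327 with SMAD4 siRNA and 279 with NC siRNA, a ratio of 1.17 (1.06 to 1.29). Of the genes with at least 100 reads, 10.8% had a log2 ratio at or above that of CHAC1 and 17.2% one at or above that of TRIB3.

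Other members of this arm lay below 1. PPP1R15A, the phosphatase subunit GADD34 that reverses eIF2 phosphorylation, had 535 with SMAD4 siRNA and 587 with NC siRNA, a ratio of 0.912 (0.842 to 0.988) whose interval held 1 after scaling, at 0.990. VLDLR, a lipoprotein receptor induced by ATF4, had 1107 with SMAD4 siRNA and 1279.8 with NC siRNA, a ratio of 0.865 (0.826 to 0.906). CEBPB, the leucine zipper factor C/EBP beta, had 211 with SMAD4 siRNA and 343 with NC siRNA. Its ratio of 0.614 (0.514 to 0.732), on 533 reads, was the lowest of all members, and 3.57% of the genes with at least 100 reads had a lower log2 ratio. After scaling its ratio was 0.666, and its log2 ratio of values + 1 was no longer past 1.5-fold. In granulosa cells CEBPB is also known as a target of the ovulatory gonadotropin signal. The median log2 ratio over 6 genes of this group was -0.039 as deposited and 0.079 after scaling, with members at both ends of the range.

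Serine and asparagine synthesis was the role group with the highest median log2 ratio, 0.15 over 4 genes and 0.26 after scaling. PHGDH, which commits the glycolytic intermediate phosphoglycerate to serine, had 3336 with SMAD4 siRNA and 2666 with NC siRNA, a ratio of 1.25 (1.20 to 1.30) on 10741 reads. PSAT1, the next enzyme of that path, had 2215 with SMAD4 siRNA and 2081 with NC siRNA, a ratio of 1.06 (1.02 to 1.11). PSPH, the phosphatase that completes it, had 609.6 with SMAD4 siRNA and 620.2 with NC siRNA, a ratio of 0.983 (0.893 to 1.08). The first enzyme thus had an interval apart from those of the later enzymes, and PHGDH per PSPH was 5.47 with SMAD4 siRNA and 4.30 with NC siRNA. ASNS, the asparagine synthetase and a standard ATF4 target, had 1783 with SMAD4 siRNA and 1550.4 with NC siRNA, a ratio of 1.15 (1.10 to 1.20) on 9171 reads. PHGDH, PSAT1 and ASNS kept an interval above 1 on both scales.

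**Figure D3:**
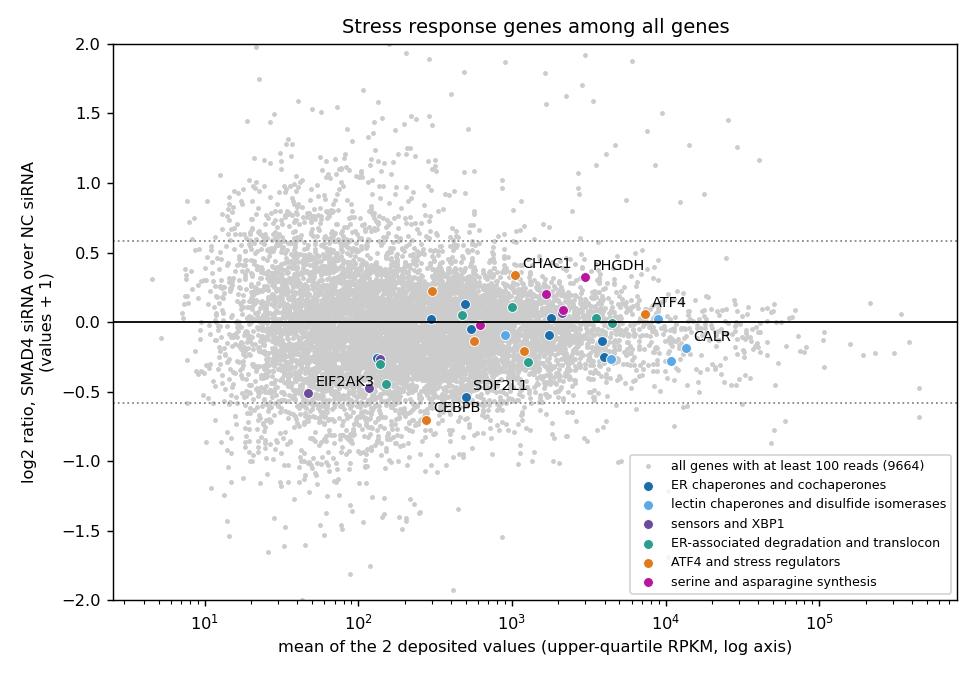
Log2 ratio of values + 1, SMAD4 siRNA over NC siRNA, against the mean of both values on a log axis. Grey points are the 9664 genes with at least 100 reads (35 lie beyond the axis limit of 2), coloured points the 35 members, and dotted lines mark 1.5-fold. Members of all roles lie within the cloud, mostly at its well expressed end.

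Set among all genes, the members were well expressed. Their median mean value was 1047, against 214 for genes with at least 100 reads, and 20 of the 35 were in the highest of the 4 classes by level. The standard deviation of their log2 ratios was 0.25, against 0.41 for genes with at least 100 reads. The members also rest on more reads, with a median of 3157 against 754, and counting scatter is smaller with more reads. In that highest class the genes as a whole had a median log2 ratio of -0.05, with 22.8% of intervals above 1 and 44.1% below, and the 20 members had a median of 0.0086.

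Other genes of the pathway, 153 in 5 lists, gave 134 with a mean value of 1 or more. Their median log2 ratio was 0.016, and 4 were higher and 4 lower by 1.5-fold. Over all 16609 genes 13.5% were higher and 13.7% lower, but 123 of the 134 have at least 100 reads, and of all such genes 4.39% were higher and 5.69% lower. Intervals over the 134 genes lay above 1 for 23.9% and below 1 for 18.7%, or 47.0% and 11.9% after scaling. The background was 12.7% above and 21.5% below over all 16609 genes, or 21.3% and 13.4% after scaling. Over genes with at least 100 reads it was 17.6% and 32.4%, or 30.8% and 19.6% after scaling. These shares are the background for the counts of every list. Further targets of ATF4 had the highest median of these lists, 0.12 over 27 genes, with 9 intervals above 1 (33.3%) and 4 below (14.8%), or 14 above (51.9%) and 1 below (3.70%) after scaling. At the upper end stood ATF5, an ATF4-related factor, with 226 for SMAD4 siRNA and 148 for NC siRNA, a ratio of 1.52 (1.32 to 1.77). Next was WARS1, the tryptophanyl-tRNA synthetase that interferon also induces, with 4111 for SMAD4 siRNA and 3293 for NC siRNA, a ratio of 1.25 (1.22 to 1.28). At the lower end were the autophagy receptor SQSTM1 at 0.824 (0.808 to 0.841) and the bZIP factor JDP2 at 0.860 (0.766 to 0.964). SESN2, a stress-induced inhibitor of mTORC1 that was picked after its value was seen, had a ratio of 1.13 (1.04 to 1.23).

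Further stress kinases and transducers had a median of 0.013 over 22 genes, with 7 intervals above 1 (31.8%) and 3 below (13.6%), or 12 above (54.5%) and 3 below (13.6%) after scaling. EIF2S1, the alpha subunit of eIF2 that these kinases phosphorylate, had 344 with SMAD4 siRNA and 264 with NC siRNA, a ratio of 1.30 (1.15 to 1.48). PPP1R15B, the constitutive counterpart of PPP1R15A in removing that phosphate, had 115 with SMAD4 siRNA and 171 with NC siRNA, a ratio of 0.672 (0.512 to 0.881). NFYC, a subunit of the factor that binds ER stress elements together with ATF6, had a ratio of 1.27 (1.15 to 1.41), and CREB3L2, an ATF6-like membrane factor, had 0.872 (0.827 to 0.919). ATF6B, the relative of ATF6, had a ratio of 1.07 (1.01 to 1.12), on the other side of 1 from ATF6 itself, and was picked after its value was seen.

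Further ER folding genes had a median of 0.0040 over 29 genes, with 6 intervals above 1 (20.7%) and 7 below (24.1%), or 11 above (37.9%) and 3 below (10.3%) after scaling. TMX3, a membrane-bound disulfide isomerase, had 36.7 with SMAD4 siRNA and 16.1 with NC siRNA, a ratio of 2.28 (1.71 to 3.07), and FKBP14, a prolyl isomerase of the ER, had a ratio of 1.76 (1.33 to 2.34). UGGT1, the folding checkpoint that returns misfolded glycoproteins to calnexin and calreticulin, had 24.5 with SMAD4 siRNA and 38.2 with NC siRNA, a ratio of 0.642 (0.533 to 0.772), and CRELD1 had one of 0.783 (0.728 to 0.843). The further degradation genes had a median of -0.034 over 23 genes. Of their intervals 3 lay above 1 (13.0%) and 5 below (21.7%), or 9 above (39.1%) and 4 below (17.4%) after scaling. Of the 23 genes, 21 have at least 100 reads. Over all such genes 17.6% lay above and 32.4% below, or 30.8% and 19.6% after scaling. HERPUD2, a relative of HERPUD1, was lowest there at 0.591 (0.482 to 0.723), followed by the ubiquitin ligase MARCHF6 at 0.747 (0.697 to 0.800). EDEM3 at 1.38 (0.932 to 2.07) and ERLEC1 at 1.19 (0.997 to 1.42) were highest, and both intervals held 1 as deposited and lay above 1 after scaling.

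Translocon and early secretory genes had a median of 0.0070 over 33 genes, with 7 intervals above 1 (21.2%) and 6 below (18.2%), or 17 above (51.5%) and 5 below (15.2%) after scaling. SRP14 and SRP9, which pair in the signal recognition particle and pause translation of secreted proteins, were the lowest of the list. SRP14, found through its reference name, had 143 with SMAD4 siRNA and 281 with NC siRNA, a ratio of 0.509 (0.412 to 0.626). SRP9 had 499 with SMAD4 siRNA and 669 with NC siRNA, a ratio of 0.746 (0.675 to 0.823). TRAM1, which helps chains enter the translocon, was highest at 1.31 (1.11 to 1.56), followed by SEC11C, a signal peptidase subunit also found through its reference name, at 1.26 (1.08 to 1.46).

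**Figure D4:**
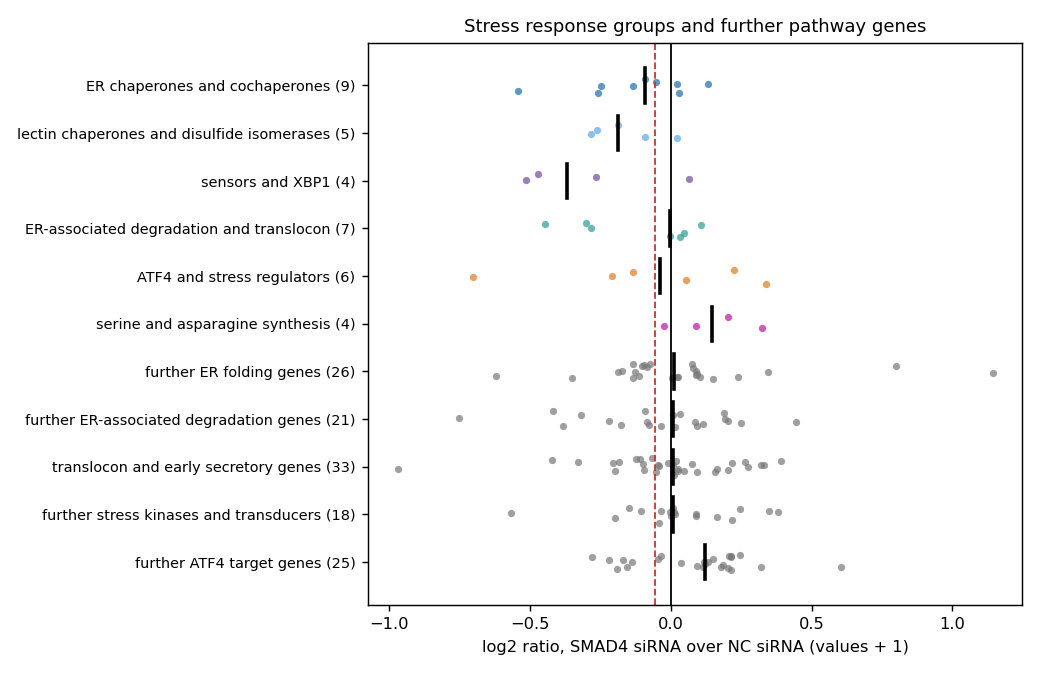
Log2 ratio of values + 1, SMAD4 siRNA over NC siRNA, for each gene (points) with at least 100 reads in the 6 role groups (coloured) and 5 further lists (grey), with the median as a black bar and the number of genes in brackets. The dashed red line is the median of all genes with at least 100 reads, -0.06. The sensors with XBP1 lie to its left with a median of -0.37, and serine and asparagine synthesis lies to its right at 0.15.

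Markers of other cells differed between the libraries in places. In bulk RNA fewer cells of a type and less RNA per cell cannot be told apart. Being listed at 0 does not show that a marker is absent. Of the 153 other pathway genes, 11 were also listed at 0 in both libraries, TMBIM6 and SEC11A among them. Pancreatic acinar genes, whose cells hold much ER, summed to 174 with SMAD4 siRNA and 889 with NC siRNA over 10 of 15 measured, which is 0.00134% of all values with SMAD4 siRNA and 0.00630% with NC siRNA. Of these 10, 9 were lower by 1.5-fold, while CTRC and SYCN were listed at 0 in both libraries. CPA1, a pancreatic carboxypeptidase, made up 6.75 of this with SMAD4 siRNA and 338 with NC siRNA, and the acinar isomerase PDIA2 had 0 reads with SMAD4 siRNA and 4 with NC siRNA. The part of these genes in the lower chaperone values was not tested. Of the theca cell markers, CYP17A1, LHCGR and INSL3 were listed at 0 in both libraries, and the 3 measured, DCN, COL3A1 and PTCH1, summed to 30102 with SMAD4 siRNA and 39246 with NC siRNA. COL3A1 made up 28474 of this with SMAD4 siRNA and 37062 with NC siRNA. The intervals of COL3A1 and DCN lay below 1, and that of PTCH1, at 0.912 (0.753 to 1.11), held 1. Leukocyte markers summed to 571 with SMAD4 siRNA and 598 with NC siRNA over 3 of 7 measured, nearly all of it CD14, while PTPRC had 2 reads with SMAD4 siRNA and 1 with NC siRNA and CD3E was listed at 0. CD79A had 5 reads with SMAD4 siRNA and 17 with NC siRNA, a ratio of 0.267 (0.077 to 0.754). CSF1R had 3 reads with SMAD4 siRNA and 8 with NC siRNA, a ratio of 0.341 (0.058 to 1.42). Endothelial markers summed to 341 with SMAD4 siRNA and 445 with NC siRNA over 4 of 6 measured. PECAM1, at 240.4 with SMAD4 siRNA and 275 with NC siRNA, and ERG, at 97.2 with SMAD4 siRNA and 167 with NC siRNA, made up nearly all of it, and the ratio of ERG was 0.582 (0.442 to 0.763). KDR had 13 reads with SMAD4 siRNA and 5 with NC siRNA, VWF had 6 with SMAD4 siRNA and 7 with NC siRNA, and TEK was listed at 0. Whether these markers come from such cells, or bear on the values above, was not tested.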

How the data were processed

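Total RNA of porcine granulosa cells, pooled from 3 individuals per group, was made into 1 Ion Torrent library per group, per the labels' protocols and the series' design text. The tables deposited by the authors are named UQRPKM, and their values were taken as RPKM after upper-quartile scaling (UQ-RPKM). The aligner, counter, genome build and annotation were not given in the sources used here.

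Whole reads were taken from the steps in the values. The commonest ratio between the libraries, 0.908163, was read as equal reads, which with divisors of 980 (SMAD4 siRNA) and 890 (NC siRNA) gave whole reads at a whole length for all 18428 genes above 0 (relative tolerance 2e-09, absolute tolerance 1e-06). The smallest such numbers were used, so reads are lower bounds and the intervals drawn from them can be too wide. Ratios are SMAD4 siRNA over NC siRNA, each with an exact Clopper-Pearson 95% interval from its reads, which covers counting error only. Log2 ratios are of values + 1, over the 16609 genes whose mean value reached 1, and they understate the change of low genes. A gene was called higher or lower at 1.5-fold on that scale. No test between the groups was possible without replicates.

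The genes, their lists and the alternatives were chosen with earlier results of these data known. Members were matched by symbol. In the other lists, 11 genes were matched by an older symbol and 13 by the name that a table of assembly Sscrofa11.1 gives their ID. All members above 0 were named, and in the other lists up to 2 genes at each end with at least 100 reads; genes outside that rule are said to be picked after their values were seen. Sequences were not analysed here. The steps were checked on simulated data, with Python 3.11.15, numpy 2.4.6, pandas 2.3.3 and scipy 1.17.1.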

Additional observations from a re-analysis of the deposited data

How the results depend on the processing

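No paired analysis was possible because each group has 1 library. Of 78 recomputed values, 67 counted as the same and 11 moved. Counts were the same within 1.5 times, and medians within the median half-width of their genes' counting intervals. That width belongs to single genes and is no error of a median. By this rule the ER chaperone median counted as the same, though scaling took it from -0.09 to 0.026. Members higher by 1.5-fold numbered 0, and 5 had an interval above 1, or 12 with both libraries scaled to the same sum, an alternative added after seeing the data. Members lower numbered 1, against 0 at 2-fold, 0 after scaling, 17 with an interval below 1, and 11 with such an interval after scaling. Intervals take in differences of any size, so they call more genes by construction. After scaling, which adds 0.12 to every log2 ratio of plain values, the median over all members was 0.028, that of lectin chaperones and isomerases -0.070, that of ATF4 and stress regulators 0.079 and that of serine and asparagine synthesis 0.26. Centred on all genes, lectin chaperones and isomerases had a median of -0.14. Pseudocounts of 0.1 and 5, minimums, means in place of medians and added reference entries moved none of these medians beyond that half-width. SMAD4 stayed lower under all 4 of its alternatives. The fewest recovered reads were those of the sensors, EDEM1, CRELD2, DERL1, DNAJB9, CEBPB and SDF2L1. These are lower bounds, so their order need not be the order of true depth.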

Other observations

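The genes given here were all picked after their values were seen, and IMPACT and NFYA, each below 100 reads, stood far from the rest. IMPACT, an inhibitor of the amino acid sensor GCN2, had 17.9 UQ-RPKM with SMAD4 siRNA and 6.86 with NC siRNA, a ratio of 2.61 (1.60 to 4.39) on 89 reads over both. NFYA, the DNA-binding partner of NFYB and NFYC, had 6.03 with SMAD4 siRNA and 19.3 with NC siRNA, a ratio of 0.313 (0.181 to 0.521) on 82 reads, while NFYB had 0.975 (0.691 to 1.38). GCN2 itself (EIF2AK4) had 85.2 with SMAD4 siRNA and 70.4 with NC siRNA, a ratio of 1.21 (0.754 to 1.96), and EIF2AK1, the heme-regulated eIF2 kinase, had 433 with SMAD4 siRNA and 431 with NC siRNA, a ratio of 1.01 (0.923 to 1.10).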
